A study of Mus musculus with 9 samples.

Results

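Glycolysis turns glucose into pyruvate and lactate, and 10 genes of that route were followed here through mouse retina: Slc2a1, Hk1, Hk2, Pfkl, Aldoa, Aldoc, Pkm, Ldha, Ldhb and Slc16a1. They were chosen by name, not picked by their values, although earlier results of these data were known. Each was found once among the 47729 Ensembl identifiers of the count table, and all 10 were tested in all 3 comparisons. The data were bulk RNA sequencing counts of whole retinas, with 3 libraries in each of 3 groups on a C57Bl6/J background. Yap CKO mice were Yapflox/flox with Rax-CreERT2, a Cre that acts in Müller cells, the main glia of the retina. Control mice were Yapflox/flox without the Cre, so both groups carried floxed Yap. Both received 4-hydroxytamoxifen, the drug that switches this Cre on, by intraperitoneal injection at P10, and both were examined at P60. C57 mice were wild type, examined at P30 and taken over from an earlier series, and no injection is given for them. The names of the P60 libraries also hold the letters MNU, which the labels do not explain.

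Retina makes lactate from glucose even when oxygen is present, and photoreceptors are the cells best known for it. A carrier brings glucose in, a hexokinase traps it, phosphofructokinase commits it to glycolysis, aldolase splits the sugar and pyruvate kinase makes pyruvate. Lactate dehydrogenase interconverts pyruvate and lactate, and monocarboxylate carriers move lactate across the membrane. Hk2, Pkm and Ldha are the forms usually linked to lactate production in photoreceptors, whereas Ldhb is the form found in many oxidative tissues.

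Total counts were 34739679 to 37629264 per P60 library and 13760765 to 16808499 per C57 library. Yap1 had 15.2, 21.4 and 24.0 CPM in Yap CKO, 66.3, 60.4 and 56.9 CPM in control and 23.9, 25.8 and 31.1 CPM in C57, in the order of libraries 1, 2 and 3, with a C57 library of uncertain number (C57 unnumbered) given last. CPM are counts scaled by library size, so that libraries can be compared. Yap1 was 3.04-fold lower in Yap CKO than in control (log2 fold change -1.60, SE 0.166, adjusted p = 0.0327), without overlap, and Yap1 RNA of cells other than Müller cells is counted as well. Without control 1 or control 2 no gene passed, Yap1 included, although 2035 and 2226 genes had an unadjusted p under 0.05. Against C57, Yap1 did not pass in Yap CKO (log2 fold change -0.41, adjusted p = 0.126) and was 2.30-fold higher in control (adjusted p = 0.000348). All 15 of 15 rod marker genes, Sag and Gnat1 among them, were detected in every library. Their summed level was 1782 to 25757 CPM in Yap CKO, 5087 to 24283 CPM in control and 119088 to 139884 CPM in C57, so the defining markers of rods were far lower in all 6 P60 libraries. Markers of other cell types also differed, by differing amounts. The 10 cone markers summed to 391 to 791 CPM in Yap CKO, 382 to 694 CPM in control and 1968 to 2635 CPM in C57. The 10 Müller cell markers summed to 4184 to 5171 CPM in Yap CKO, 4683 to 5137 CPM in control and 7965 to 8660.4 CPM in C57. The 8 reactive glia markers, Gfap among them, ran the other way, with 1829 to 1992 CPM in Yap CKO, 1569.9 to 1756 CPM in control and 75.4 to 123 CPM in C57. By mean log2(CPM + 1), rod markers were at 5.77 to 9.65 at P60 and 11.9 to 12.1 in C57. Müller cell markers were at 7.90 to 8.21 and 8.46 to 8.59, and bipolar markers at 6.84 to 7.10 and 7.35 to 7.52. Amacrine and horizontal markers, at 6.85 to 7.20 and 6.76 to 6.89, overlapped. Ganglion markers were higher at P60, at 7.52 to 7.74 against 7.31 to 7.36. All genes of these lists were detected in every library, and their part in the members' differences from C57 was not tested. In RNA from whole tissue, fewer cells of a type and less RNA per cell cannot be told apart. The 10 lens marker genes summed to 1124 CPM in Yap CKO 3 and to at most 29.9 CPM in the other libraries. Xist and Y-linked counts marked all 3 controls as male, as they did Yap CKO 3 and C57 2, and the other 4 libraries as female. Each P60 library came from 1 retina, and the labels do not say that retinas of a group came from different mice. The p-values therefore measure the spread between these samples only. As far as the labels go, C57 differs from both P60 groups in age, floxed allele, drug, series and depth. The letters MNU, held by the names of P60 libraries only, mark a further difference that the labels do not explain. All these differences cannot be told apart.

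The genes are placed on GRCm38 with the GENCODE M21 annotation. Promoter windows from RefSeq (GRCm38.p6), from 250 bases before to 50 after an annotated start, were found for all 10 genes, 16 windows in all. Windows of 4 genes are shown because they belong to the 3 members with the largest fold changes between P60 and C57 retinas, Hk2, Ldha and Slc16a1, and to Ldhb, the partner of Ldha, whose fold changes lay nearer to 1. Capitals mark ACGTG, the core of the hypoxia response element, on either strand (CACGT on the other), and the 2 patterns overlap in CACGTG.
Hk2, chr6:82774405-82774704, minus strand: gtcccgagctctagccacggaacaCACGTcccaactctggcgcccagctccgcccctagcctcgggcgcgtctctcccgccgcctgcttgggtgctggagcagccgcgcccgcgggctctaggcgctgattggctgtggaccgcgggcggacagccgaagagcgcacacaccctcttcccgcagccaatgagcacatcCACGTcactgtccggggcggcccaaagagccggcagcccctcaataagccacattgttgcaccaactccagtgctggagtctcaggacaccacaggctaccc
Ldha, chr7:46845554-46845853, plus strand: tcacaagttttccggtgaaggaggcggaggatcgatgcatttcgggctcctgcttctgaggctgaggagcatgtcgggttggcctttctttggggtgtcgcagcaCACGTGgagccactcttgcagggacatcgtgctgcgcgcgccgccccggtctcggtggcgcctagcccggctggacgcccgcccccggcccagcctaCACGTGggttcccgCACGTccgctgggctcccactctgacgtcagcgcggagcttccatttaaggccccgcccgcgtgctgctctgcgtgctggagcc
Slc16a1, chr3:104638414-104638713, plus strand: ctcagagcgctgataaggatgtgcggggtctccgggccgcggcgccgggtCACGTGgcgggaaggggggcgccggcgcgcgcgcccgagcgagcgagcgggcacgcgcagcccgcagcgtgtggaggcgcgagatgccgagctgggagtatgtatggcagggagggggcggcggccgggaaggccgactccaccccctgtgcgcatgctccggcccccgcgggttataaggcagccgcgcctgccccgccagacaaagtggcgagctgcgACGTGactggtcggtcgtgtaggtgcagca
Ldhb, chr6:142507908-142508207, minus strand: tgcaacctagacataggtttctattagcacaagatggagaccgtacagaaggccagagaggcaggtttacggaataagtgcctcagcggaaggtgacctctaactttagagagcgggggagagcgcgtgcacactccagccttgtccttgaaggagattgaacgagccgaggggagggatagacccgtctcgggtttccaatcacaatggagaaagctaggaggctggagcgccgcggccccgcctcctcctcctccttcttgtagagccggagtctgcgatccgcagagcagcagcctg
A further window of Ldha, chr7:46846832-46847131, holds none and is not shown. Counting both strands, the windows shown held 2 matches for Hk2, 5 for Ldha, 3 for Slc16a1 and 0 for Ldhb. Each CACGTG counts as 2 of these matches, so Ldha and Slc16a1 have fewer separate marked stretches than matches. The pattern was in 9 of the 16 windows and in at least 1 window of 8 of the 10 genes, all but Pfkl and Ldhb. For Aldoa, 2 of the 9 windows overlap and hold the same match. It was in 19.6% of all 32851 windows of the table. CATTCC, the pattern bound by TEAD factors, the DNA-binding partners of YAP, was in 2 of the 16 windows, 1 of Aldoa and 1 of Aldoc, against 14.7% of all windows. TAATCC, the pattern bound by the photoreceptor factor CRX, was also in 2, 1 of Ldha and 1 of Aldoc, against 7.06%. These matches describe letters in a window and show no binding.

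Setting Yap CKO beside control retinas asks what loss of Yap in Müller cells did to these genes in the P60 retina. None of the 10 passed edgeR's quasi-likelihood test at an adjusted p of 0.05, where 0.200% of all 16539 genes tested did. At an unadjusted p under 0.05 there were 2, Aldoc and Ldhb, both higher in Yap CKO, against 17.8% of all genes. Those 2 were also the only members whose groups did not overlap, as was so, with Yap CKO higher, for 13.5% of all genes. DESeq2 called both (Aldoc adjusted p = 0.0263, Ldhb 0.00915) and limma-voom called 0. In both genes the male Yap CKO 3 was also above all 3 controls, which were male too, while the part of sex in the differences was not tested. The median log2 fold change of the members was 0.05, beside 0.01 over all genes tested.

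Control against C57 gave 7 of 10 members lower and none higher, where 22.4% of all 15820 genes tested were lower and 23.1% higher. Hk1, Hk2, Aldoc, Pkm, Ldha, Ldhb and Slc16a1 fell, all 7 without overlap between the groups, which 29.4% of all genes also showed in that direction. Pfkl, Aldoa and Slc2a1 did not pass. The members' median log2 fold change was -0.67, beside 0.03 over all genes.

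For Yap CKO against C57, which shares the C57 libraries with the previous comparison, 6 of 10 members fell and none rose. Of all 15840 genes tested, 20.2% were lower and 20.3% higher. The 6 were Hk1, Hk2, Aldoc, Pkm, Ldha and Slc16a1, none overlapping C57, as for 27.1% of all genes in that direction. Pfkl, Aldoa, Ldhb and Slc2a1 did not pass. The median was -0.58 for the members and 0.02 for all genes. Leaving out 1 library at a time moved the count of lower members between 2 and 6 for Yap CKO and between 4 and 8 for control. For Yap CKO it was 2 without Yap CKO 2, 3 without Yap CKO 3 or C57 2 and 4 without C57 1. Over all genes tested, those runs called 1881 of 15277, 2536 of 15346, 1979 of 16832 and 3779 of 16841 lower, beside 3202 of 15840. For control the count of lower members was 4 without C57 2, control 2 or control 3. Those runs called 2624 of 16748, 2493 of 15273 and 2539 of 15322 genes lower, beside 3547 of 15820. Ldha and Slc16a1 passed in both comparisons under every alternative run, as did Hk2 and Aldoc for control against C57.

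**Figure D1:**
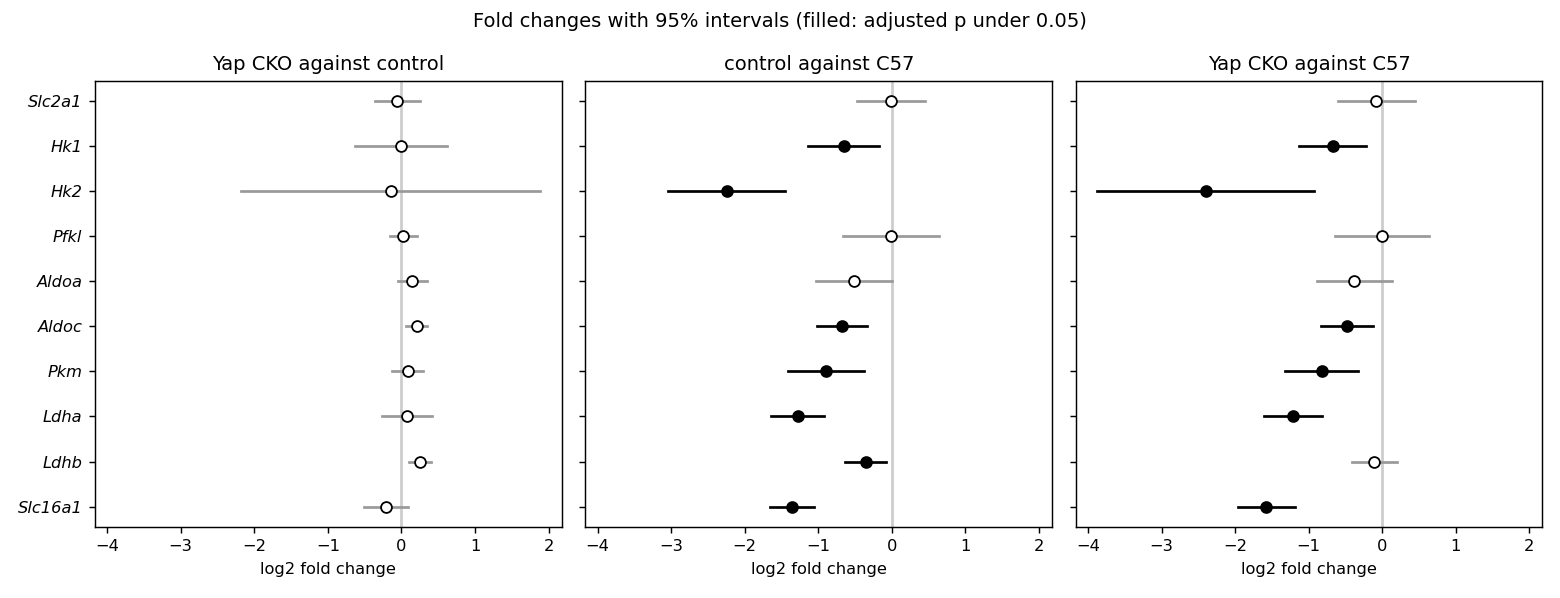
Log2 fold changes of the 10 genes (x axis) in the 3 comparisons, from edgeR, with lines for 95% intervals and filled points for an adjusted p under 0.05. No point is filled for Yap CKO against control, 7 are filled for control against C57 and 6 for Yap CKO against C57, all of them left of 0.

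Slc2a1 encodes GLUT1, the glucose carrier of photoreceptors, glia, pigment epithelium and vessels (ENSMUSG00000028645, chromosome 4, 119108711 to 119137983, plus strand). It had 286, 238 and 195 CPM in Yap CKO, 264, 234 and 246 CPM in control and 340.1, 229.7 and 192 CPM in C57. The groups overlapped in every comparison, and C57 1 was the highest library. The log2 fold change was -0.06 for Yap CKO against control (SE 0.130, adjusted p = 0.879), -0.08 for Yap CKO against C57 (SE 0.229, 0.802) and -0.01 for control against C57 (SE 0.200, 0.964). For Yap CKO against C57 the 95% interval of -0.60 to 0.44 does not exclude a moderate difference. Exons of Gm12868, on the opposite strand, cover 2.99% of its exon length. Of the 3 members that were not called lower in control than in C57, Slc2a1 acts earliest in the route.

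Hexokinases phosphorylate glucose on entry, Hk1 as the form most cells use (ENSMUSG00000037012, chromosome 10, 62268855 to 62379908, minus strand) and Hk2 as an inducible form found in photoreceptors (ENSMUSG00000000628, chromosome 6, 82725025 to 82774454, minus strand). Hk2 had 108, 70.9 and 19.2 CPM in Yap CKO, 113, 39.6 and 66.6 CPM in control and 404, 313 and 337 CPM in C57. Every P60 library lay far under every C57 library, and within P60 Yap CKO 3 and control 2 were lowest. Hk2 was 5.28-fold lower in Yap CKO than in C57 (log2 fold change -2.40, SE 0.602, adjusted p = 0.0234). It was 4.74-fold lower in control than in C57 (-2.24, SE 0.344, adjusted p = 0.00147). The Yap CKO call was lost without C57 1, the unnumbered C57 library or Yap CKO 2 (adjusted p 0.0870 to 0.112) and without the count filter (0.0944), with a fold change of similar size. Hk2 was the member with the widest spread at P60, its highest library being 5.65-fold above its lowest in Yap CKO and 2.86-fold in control, against 1.29-fold in C57. Between Yap CKO and control its log2 difference was -0.15 with a 95% interval of -2.18 to 1.89, so these libraries could not resolve even a large change.

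Hk1 had 997, 752 and 608 CPM in Yap CKO, 1029.8, 587 and 742 CPM in control and 1437, 1187 and 1142 CPM in C57. No P60 library reached the lowest C57 library, and control 2 and Yap CKO 3 were again the lowest of their groups. The log2 fold change was -0.67 for Yap CKO against C57 (SE 0.199, adjusted p = 0.0269) and -0.65 for control against C57 (SE 0.210, adjusted p = 0.0357). Without C57 2, Yap CKO 2 or Yap CKO 3 the Yap CKO call was lost (adjusted p 0.0732 to 0.102), as was the control call without C57 1, C57 2, control 2 or control 3 (0.0650 to 0.124). Hk1 did not differ detectably between Yap CKO and control (adjusted p = 0.995, 95% interval of the log2 difference -0.63 to 0.62). Exons of Hk1os, on the opposite strand, cover 1.84% of the exon length of Hk1.

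Pfkl encodes the liver form of phosphofructokinase, the committed step of glycolysis (ENSMUSG00000020277, chromosome 10, 77986947 to 78010083, minus strand). It had 410.4, 407 and 411 CPM in Yap CKO, 442, 368 and 393 CPM in control and 596, 393 and 243 CPM in C57. The 6 P60 libraries were close to one another, whereas the C57 libraries spread 2.45-fold and enclosed them all. The log2 difference was 0.03 for Yap CKO against control (SE 0.0777, adjusted p = 0.905) and -0.01 for control against C57 (SE 0.283, 0.973). Its 95% interval for Yap CKO against C57 ran from -0.64 to 0.64 (adjusted p = 0.999). The sign in both C57 comparisons changed with the setting used.

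Aldolases split fructose bisphosphate, with Aldoa as the broad form (ENSMUSG00000030695, chromosome 7, 126795234 to 126800751, minus strand) and Aldoc as the brain form (ENSMUSG00000017390, chromosome 11, 78322968 to 78327781, plus strand). Aldoa had 2898, 2600.4 and 2458 CPM in Yap CKO, 2569, 2228 and 2358 CPM in control and 4575, 3339.8 and 2463 CPM in C57. C57 1 and C57 2 lay above every P60 library, but the unnumbered C57 library fell within the P60 range. The log2 fold change was -0.38 for Yap CKO against C57 (SE 0.223, adjusted p = 0.204) and -0.52 for control against C57 (SE 0.223, 0.0944). Without the unnumbered library both passed, at -0.58 in Yap CKO (adjusted p = 0.0314) and -0.71 in control (0.00826), and the control difference passed in DESeq2 (0.0461) and in a fit of all 9 libraries (0.0424). Yap CKO and control overlapped, with a log2 difference of 0.15 (SE 0.0857, adjusted p = 0.412). Exons of Fam57b, on the opposite strand, cover 0.859% of the exon length of Aldoa.

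Aldoc had 581, 591 and 594 CPM in Yap CKO, 525, 496 and 500.2 CPM in control and 963, 837 and 673 CPM in C57. The 3 groups did not overlap, with Yap CKO between control and C57. Yap CKO was below C57 at a log2 fold change of -0.48 (SE 0.155, adjusted p = 0.0364), and control was below C57 at -0.68 (SE 0.145, adjusted p = 0.0066). The Yap CKO call was lost when any library but the unnumbered C57 one was left out (adjusted p 0.0606 to 0.120) and without the count filter (0.0659). Yap CKO averaged 589 ± 7.01 CPM and control 507 ± 15.7 CPM (SD, n = 3 each). That log2 difference of 0.21 (SE 0.0611, 95% interval 0.07 to 0.35) did not pass, with an adjusted p of 0.148 in edgeR.

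Pkm encodes the pyruvate kinase of brain and retina, and its M1 and M2 splice forms are counted together here (ENSMUSG00000032294, chromosome 9, 59656368 to 59679375, plus strand). It had 2912, 2533 and 2606 CPM in Yap CKO, 2788, 2289 and 2485 CPM in control and 6163, 4691 and 3411 CPM in C57. All 3 C57 libraries were above the P60 libraries, with the unnumbered one nearest to them. Gm49759, on the same strand, shares 15.3% of the exon length of Pkm, so reads there cannot be told apart even by strand, and Gm49759 is not analysed here. Pkm fell by 0.82 on the log2 scale in Yap CKO against C57 (SE 0.217, adjusted p = 0.0174) and fell by 0.89 in control against C57 (SE 0.223, adjusted p = 0.0133). Both calls were lost without C57 2 (adjusted p 0.0617 for Yap CKO and 0.0506 for control). The Yap CKO call was also lost without Yap CKO 2 or 3 (0.0790 and 0.0639) and the control call without control 2 or 3 (0.0634 and 0.0616). Yap CKO and control overlapped, with a log2 difference of 0.09 (SE 0.0912, adjusted p = 0.677).

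Ldha encodes the A subunit of lactate dehydrogenase, which favours the making of lactate (ENSMUSG00000063229, chromosome 7, 46841475 to 46855627, plus strand). It had 881, 721 and 624 CPM in Yap CKO, 806, 598 and 695 CPM in control and 1954, 1655 and 1550.2 CPM in C57. The lowest C57 library was well above the highest P60 library. Ldha was 2.31-fold lower in Yap CKO than in C57 (log2 fold change -1.21, SE 0.173, adjusted p = 0.00109) and 2.42-fold lower in control than in C57 (-1.28, SE 0.156, adjusted p = 0.000528). Over the alternatives the adjusted p stayed at or under 0.00968 for Yap CKO and 0.00563 for control. Between Yap CKO and control the log2 difference was 0.08 (SE 0.146, adjusted p = 0.834), with overlapping libraries.

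Ldhb encodes the B subunit, which favours the use of lactate (ENSMUSG00000030246, chromosome 6, 142490249 to 142507957, minus strand). It had 261, 267 and 250.5 CPM in Yap CKO, 213, 223 and 213 CPM in control and 315, 287 and 241 CPM in C57. Each Yap CKO library was above each control library, and Yap CKO overlapped C57 while control did not. Yap CKO averaged 259.6 ± 8.41 CPM, control 217 ± 5.68 CPM and C57 281 ± 37.0 CPM (SD, n = 3 each). Yap CKO was 1.19-fold above control (log2 difference 0.26, SE 0.0635, 95% interval 0.11 to 0.40), but the p adjusted over all genes was 0.116 in edgeR. It passed in DESeq2 (0.00915), with rod marker level as a covariate (0.26, adjusted p = 0.0296) and without Yap CKO 3 (0.28, 0.0278). Across all alternatives the adjusted p for this difference ranged from 0.00915 to 0.582. These settings also called many more genes in all, 919 in DESeq2, 1637 with the covariate and 1473 without Yap CKO 3, beside 33 in the reported fit. Control was below C57 at a log2 fold change of -0.35 (SE 0.121, adjusted p = 0.0443), and that call was lost when C57 1, C57 2 or any control was left out (0.0506 to 0.139) and without the count filter (0.102). Yap CKO against C57 gave -0.11 (SE 0.135, adjusted p = 0.547).

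Slc16a1 encodes MCT1, a proton-coupled carrier of lactate and pyruvate found in photoreceptors, pigment epithelium and vessels (ENSMUSG00000032902, chromosome 3, 104638668 to 104658462, plus strand). It had 128, 99.8 and 90.6 CPM in Yap CKO, 134, 116 and 117 CPM in control and 271, 338 and 343 CPM in C57. The lowest C57 library was above every P60 library by a wide margin, and C57 1, the highest C57 library for the 9 other members, was here the lowest. Slc16a1 was 2.98-fold lower in Yap CKO than in C57 (log2 fold change -1.58, SE 0.171, adjusted p = 0.000302) and 2.57-fold lower in control than in C57 (-1.36, SE 0.129, adjusted p = 0.000186). Against control, Yap CKO differed by -0.21 on the log2 scale (SE 0.127, adjusted p = 0.446), with overlap. The 8 pigment epithelium markers, Rpe65 and Best1 among them, were all detected in every library. They summed to 84.5 to 286 CPM in Yap CKO, 164 to 190.3 CPM in control and 379.9 to 403 CPM in C57. Their part in the level of Slc16a1 was not tested.

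**Figure D2:**
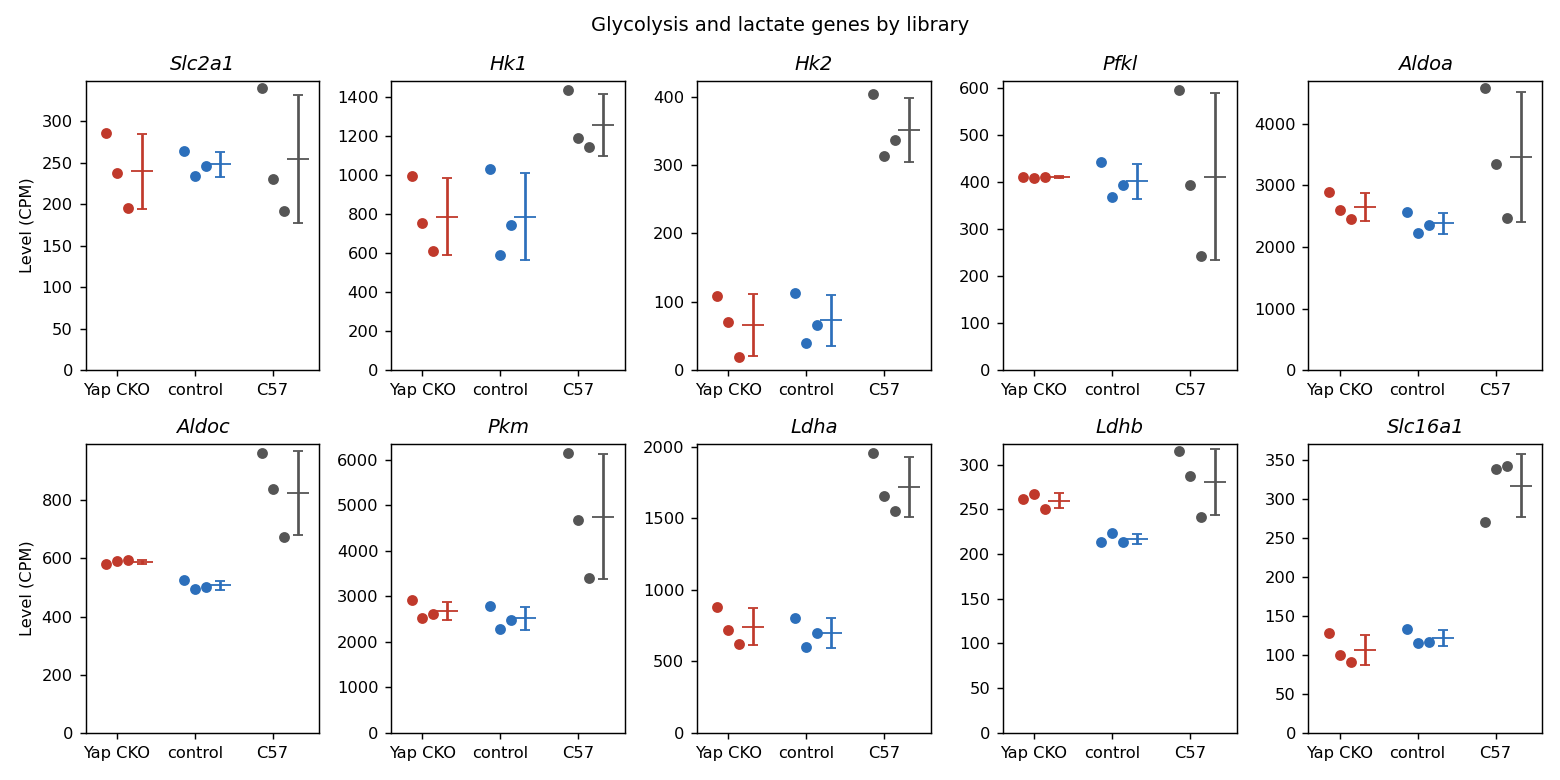
Level of each gene in CPM (counts scaled by library size, y axis from 0) in every library, with the mean and SD (n = 3) beside the points of Yap CKO, control and C57. Hk2, Ldha and Slc16a1 show C57 far above both P60 groups, Slc2a1 and Pfkl show overlapping groups, and Ldhb and Aldoc show Yap CKO above control without overlap.

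Per length of exon and library size (RPKM), Aldoa was the highest member in every group, with 911, 819 and 1188 RPKM on average in Yap CKO, control and C57. Pkm followed with 537, 504 and 951 RPKM, then Ldha with 224, 211 and 519.5 RPKM. Aldoc, Ldhb, Hk1 and Slc2a1 came next in that order in all 3 groups. In Yap CKO and control the lowest 3 were Pfkl, Slc16a1 and Hk2, with Hk2 at 11.1 and 12.2 RPKM. In C57 Slc16a1 stood above Pfkl, and Slc2a1, Slc16a1, Pfkl and Hk2 each overlapped the next in their library ranges, as did Aldoa with Pkm and Ldhb with Hk1. In control the only neighbours that overlapped were Hk1 and Slc2a1, and in Yap CKO these and Slc2a1 with Pfkl. The order of levels is set by RNA of the whole retina and does not say which cells hold it.

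The balance of isozymes was measured as the log2 ratio of their counts within a library, which needs no scaling between libraries. Ldha over Ldhb averaged 1.5 ± 0.225 in Yap CKO, 1.68 ± 0.248 in control and 2.62 ± 0.0793 in C57 (SD, n = 3 each). The 6 P60 libraries were all below the 3 C57 libraries, with mean differences of -1.11 for Yap CKO and -0.93 for control. Per length, Ldha stood 1.18 to 1.60 times as high as Ldhb in Yap CKO, 1.27 to 1.79 times in control and 2.74 to 3.05 times in C57. Hk2 over Hk1 averaged -3.86 ± 0.978 in Yap CKO, -3.52 ± 0.355 in control and -1.84 ± 0.0807 in C57, again without overlap between P60 and C57. Aldoa over Aldoc averaged 2.17 ± 0.138, 2.23 ± 0.0619 and 2.04 ± 0.192 in Yap CKO, control and C57, and these overlapped. With 3 libraries against 3, a two-sided exact permutation test cannot go below p = 0.1, the value reached by both Ldha/Ldhb and Hk2/Hk1 in both comparisons with C57 (0.225 after Benjamini-Hochberg adjustment over 9 tests). Yap CKO and control overlapped in all 3 ratios, with differences of -0.18 for Ldha/Ldhb (exact p = 0.5), -0.06 for Aldoa/Aldoc (exact p = 0.5) and -0.35 for Hk2/Hk1 (exact p = 0.8).

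**Figure D3:**
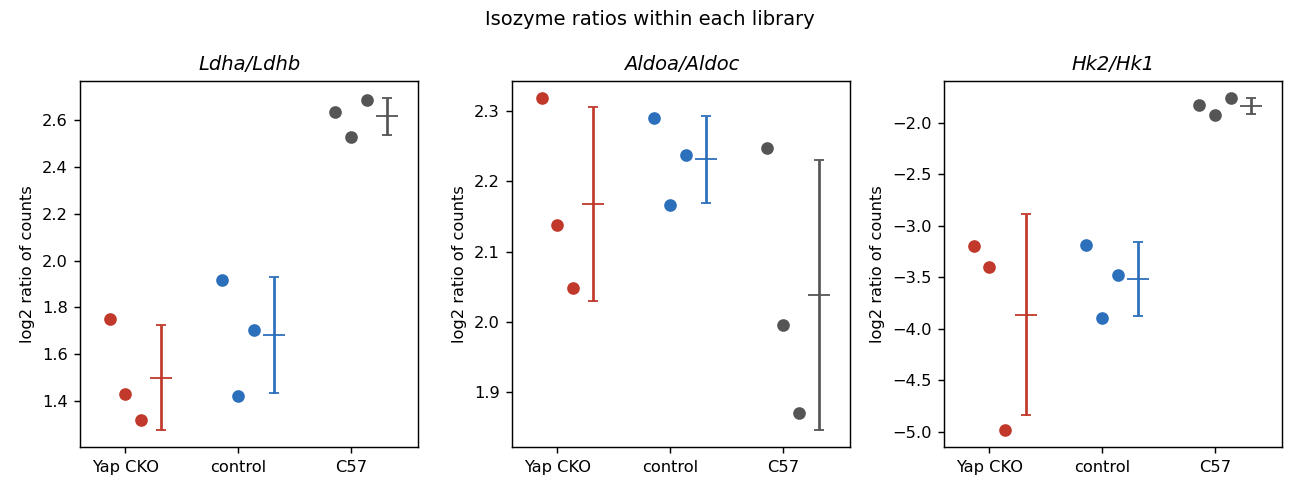
Log2 ratio of counts (y axis) for 3 isozyme pairs in each library of Yap CKO, control and C57, with the mean and SD (n = 3) beside the points. Ldha/Ldhb and Hk2/Hk1 are lower in all 6 P60 libraries than in the 3 C57 libraries, and Aldoa/Aldoc overlaps.

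Within P60, members differed in how their levels lined up with rod markers and with markers that moved alongside them. By mean log2(CPM + 1) of the 15 rod genes the 6 libraries ran from Yap CKO 1 (9.65) through control 1 (9.53), Yap CKO 2 (8.77), control 3 (8.58) and control 2 (7.38) to Yap CKO 3 (5.77). Other markers ran nearly the same way over these libraries in this order. The mean log2(CPM + 1) of the 10 cone genes was 5.41, 5.31, 4.32, 4.58, 3.49 and 3.16, and the pigment epithelium genes summed to 286, 190.3, 213, 178, 164 and 84.5 CPM. An order shared with rods is therefore also shared with these, and Yap CKO 3 is besides the library with lens markers. Hk2 had almost the same order, with control 1 and Yap CKO 1 changing places, and its highest library was 5.90-fold above its lowest. Ldha also had its 4 highest libraries in rod order, as had Hk1 apart from the leading pair, with 1.47-fold and 1.75-fold between highest and lowest. Slc2a1 was in rod order except that Yap CKO 2 and control 3 changed places, with 1.47-fold between highest and lowest. Slc16a1 was also lowest in Yap CKO 3, where rods were lowest, but its ranks in rod order were 2, 1, 5, 3, 4 and 6. Pfkl, Aldoa and Pkm were lowest in control 2, as were Hk1 and Ldha. Aldoc was highest in Yap CKO 3, and Ldhb was highest in Yap CKO 2 and lowest in control 3, so neither followed that order. The order of Aldoc and Ldhb instead split the libraries by genotype with Yap CKO higher, as did that of 13.5% of all genes tested. These are orders of 6 libraries that share their scaling, and no test was made of them. In C57, where the rod level was 11.9 to 12.1, C57 1 was highest for 9 of 10 members and the unnumbered library lowest for 8. The 5 erythrocyte genes, all detected in every library, summed to 210.1 CPM in C57 1, 119 CPM in C57 2 and 23.1 CPM in the unnumbered library, and to 6.88 to 15.2 CPM in P60. Their part in the spread of C57 was not tested.

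**Figure D4:**
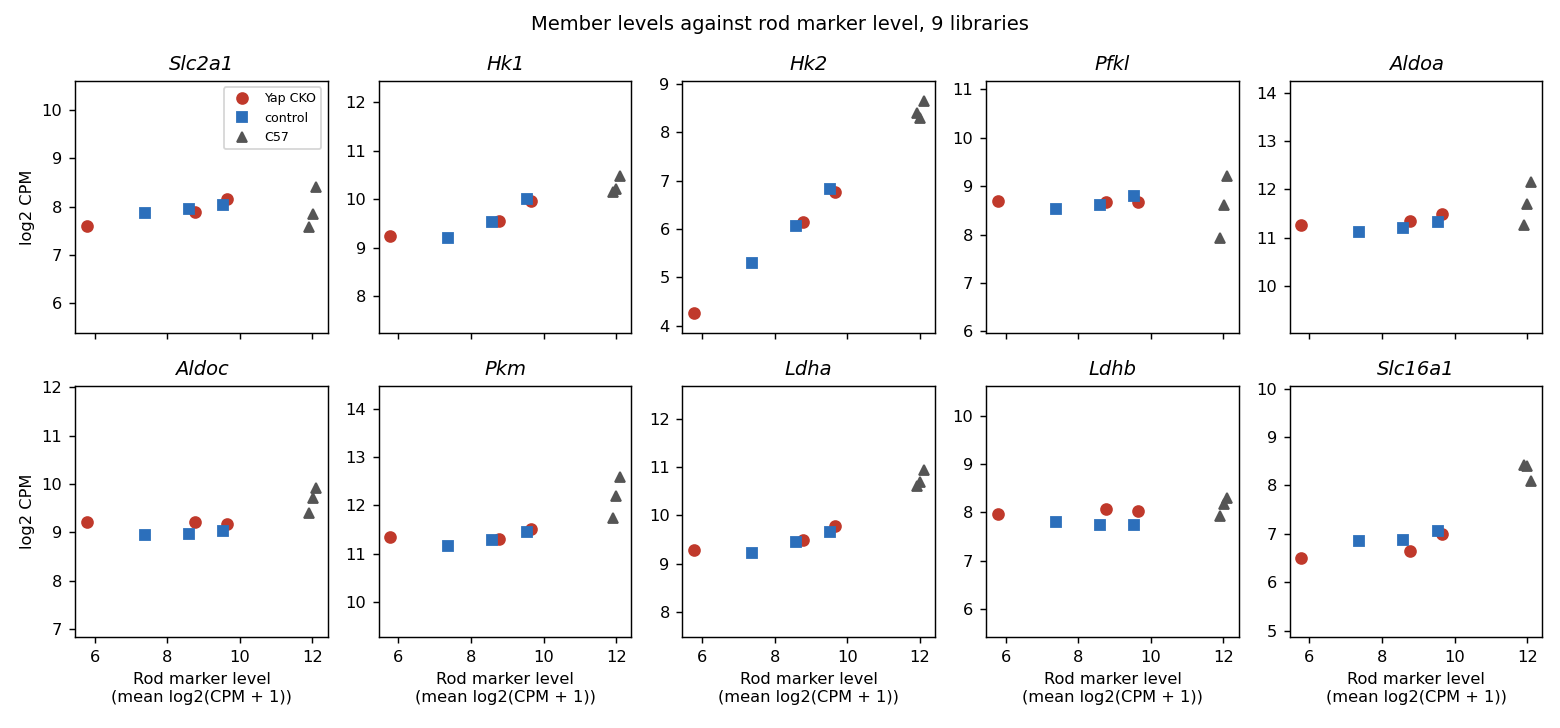
Level of each gene (log2 CPM, y axes of equal span) against the mean log2(CPM + 1) of 15 rod marker genes (x axis) in the 9 libraries, coloured by group. Hk2 is lower where rods are lower among the 6 P60 libraries. Ldhb and Aldoc are ordered by group there with Yap CKO higher, as were 13.5% of all genes tested.

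The wider route was read from 9 lists of 85 further genes, of which 75 were tested. Between Yap CKO and control none of the 75 passed in edgeR and limma-voom also called 0. An unadjusted p under 0.05 was found for 16 of the 75, against 17.8% of all genes, which is a similar share. By DESeq2, 2 of them were higher and 4 lower, where 919 of all 16539 genes were called. Without Yap CKO 3 edgeR called 5 higher and 5 lower, where 1473 of all 16809 genes were called. Slc16a7 encodes the pyruvate and lactate carrier MCT2 and had 6.01, 4.91 and 6.25 CPM in Yap CKO and 8.94, 9.10 and 8.41 CPM in control. The groups did not overlap, at a log2 difference of -0.63 (SE 0.125, adjusted p = 0.0827). The authors' deposited table gives it -0.6195, with a false discovery rate of 0.1374, for the same comparison. Pgam2, a muscle form of phosphoglycerate mutase, was at 0.982 to 1.57 CPM in Yap CKO and 0.398 to 0.579 CPM in control (log2 difference 1.42), and its adjusted p of 0.0746 was the nearest to the threshold among the 75. For it the authors' deposited table gives 1.429 with a false discovery rate of 0.03697. That table holds 305 genes and none of the 10 members. It is a filtered list in which the smallest absolute log2 fold change for this comparison is 0.5868, above that of every member here.

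Against C57, 30 of the 75 genes were lower and 7 higher in Yap CKO, and 29 were lower and 10 higher in control. Of all genes, 40.5% were called in Yap CKO and 45.5% in control, and both sets of calls rest on the same 3 C57 libraries. In Yap CKO the counts were 18 lower and 3 higher without Yap CKO 2, 19 and 3 without C57 2, and 25 and 4 without Yap CKO 3. Over all genes those runs gave 1881 and 2024, 1979 and 2007, and 2536 and 2527, beside 3202 and 3217 in the reported fit. In control the count of higher genes was 4 to 6 without any 1 control or without C57 2. Those runs called 2546 to 2789 of all genes higher, beside 3655. The median log2 fold change of the 75 genes was -0.30 in Yap CKO and -0.33 in control, and all further changes are on the log2 scale. Among the steps from triose to pyruvate, 4 of 7 tested genes were lower in Yap CKO and 5 of 7 in control, and none was higher in either. Gapdh, which oxidises glyceraldehyde phosphate, had 501, 508 and 497 CPM in Yap CKO, 502, 439 and 428 CPM in control and 3076, 2128 and 1491 CPM in C57. Against C57 it fell by 2.15 on the log2 scale in Yap CKO (adjusted p = 0.000409) and fell by 2.27 in control (0.000375), without overlap. Gapdh has many near-identical pseudogenes, and the sources used here do not say how reads with several matches were counted, so its level is uncertain. The same limit touches at least Aldoa, Pkm and Ldha, and it may touch other genes named here. Pgk1, the ATP-making kinase of the next step, fell by 1.45 in Yap CKO (adjusted p = 9.84e-05) and fell by 1.41 in control (6.75e-05). Pgam1 and Eno1, which carry the sugar acid on towards pyruvate, were also lower in both (adjusted p of 0.00618 or less).

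A hexokinase-like gene moved the opposite way to Hk1 and Hk2. Hkdc1, hexokinase domain containing 1, had 86.9, 88.9 and 103 CPM in Yap CKO, 108, 85.7 and 99.0 CPM in control and 17.3, 7.33 and 10.6 CPM in C57. All P60 libraries were above all C57 libraries, at log2 fold changes of 2.99 in Yap CKO (SE 0.285, adjusted p = 0.000178) and 3.08 in control (SE 0.286, adjusted p = 0.000164). Hkdc1 and, in Yap CKO only, Hk3 (log2 fold change 2.29, adjusted p = 0.00854) were the only genes called among the 7 tested of the hexose to triose list. Hk3 was near the floor, with 1.31, 2.02 and 1.62 CPM in Yap CKO and 0.685, 0.0740 and 0.284 CPM in C57, so its fold change rests on few counts. None of the list was called lower, although Gpi1 and Tpi1 had negative fold changes.

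Among regulators of fructose bisphosphate, Pfkfb2, which makes the activator of phosphofructokinase, had 20.8, 15.4 and 7.99 CPM in Yap CKO, 19.4, 10.7 and 15.3 CPM in control and 97.8, 93.6 and 118 CPM in C57. Against C57 it fell by 2.80 on the log2 scale in Yap CKO (SE 0.318, adjusted p = 0.000409) and fell by 2.75 in control (SE 0.223, adjusted p = 9.23e-05). Tigar, a phosphatase that opposes it, fell by 1.01 in Yap CKO (adjusted p = 0.00134) and also fell in control (0.000588). The other 3 of the 5 tested regulators did not pass in either comparison.

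The list of lactate and pyruvate carriers also holds Bsg, Emb and Ldhd, which are not carriers themselves. Of its 9 tested genes, 3 were lower in Yap CKO than in C57 (Slc16a6, Slc16a7 and Bsg). In control 2 were lower (Slc16a6 and Bsg) and 1 higher (Emb), while Slc16a3, Slc16a7, Slc16a8, Mpc1 and Mpc2 did not pass. Of all genes, 20.2% were lower and 20.3% higher in Yap CKO, and 22.4% lower and 23.1% higher in control. Slc16a6, a monocarboxylate carrier family member, had 40.3, 26.4 and 17.0 CPM in Yap CKO, 41.5, 20.02 and 26.6 CPM in control and 216, 210.1 and 261 CPM in C57, the P60 libraries lying far below C57. Its log2 fold change was -3.03 in Yap CKO (SE 0.298, adjusted p = 0.000216) and -2.94 in control (SE 0.263, adjusted p = 0.000142). Bsg, basigin, the partner that takes MCT1 to the membrane, fell by 0.63 in Yap CKO (adjusted p = 0.0175) and fell by 0.66 in control (adjusted p = 0.011). Of the 8 tested glucose carriers other than Slc2a1, 1 was higher and 2 lower in Yap CKO, and 2 higher and 3 lower in control. Slc2a3, the neuronal carrier GLUT3, was higher in control (log2 fold change 0.39, adjusted p = 0.0271) and did not pass in Yap CKO (0.29, adjusted p = 0.130).

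The counts that follow are to be read beside the shares of all genes called. These were 20.2% lower and 20.3% higher in Yap CKO, and 22.4% lower and 23.1% higher in control. Of the 12 genes of the pyruvate dehydrogenase gate, 6 were lower in Yap CKO with none higher, and 5 were lower and 1 higher in control. Pdhb, a subunit of the enzyme itself, fell by 0.59 in Yap CKO (adjusted p = 0.00549) and fell by 0.75 in control (0.000651), and Pdhx, its binding subunit, fell by 0.68 in Yap CKO (0.00293) and fell by 0.69 in control (0.00123). In the pentose phosphate list 2 of 7 genes rose and 2 fell in each comparison, among them G6pdx, its entry enzyme, which fell by 0.53 in Yap CKO (adjusted p = 0.01) and fell by 0.61 in control (0.00231). Among the 9 glycogen genes 4 fell and 1 rose in each, and Pygb, brain glycogen phosphorylase, fell by 0.92 in Yap CKO (adjusted p = 0.000762) and fell by 1.05 in control (0.000226). Of 11 tested regulators and other targets of hypoxia-inducible factor, 7 fell and 1 rose in Yap CKO, and 6 fell and 2 rose in control. Epas1, the HIF-2 alpha subunit, fell by 1.08 in Yap CKO (adjusted p = 0.000563) and fell by 1.20 in control (0.000219), while Egln3, an oxygen-dependent HIF hydroxylase, rose by 0.76 in Yap CKO (0.0205) and by 1.26 in control (0.00063).

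**Figure D5:**
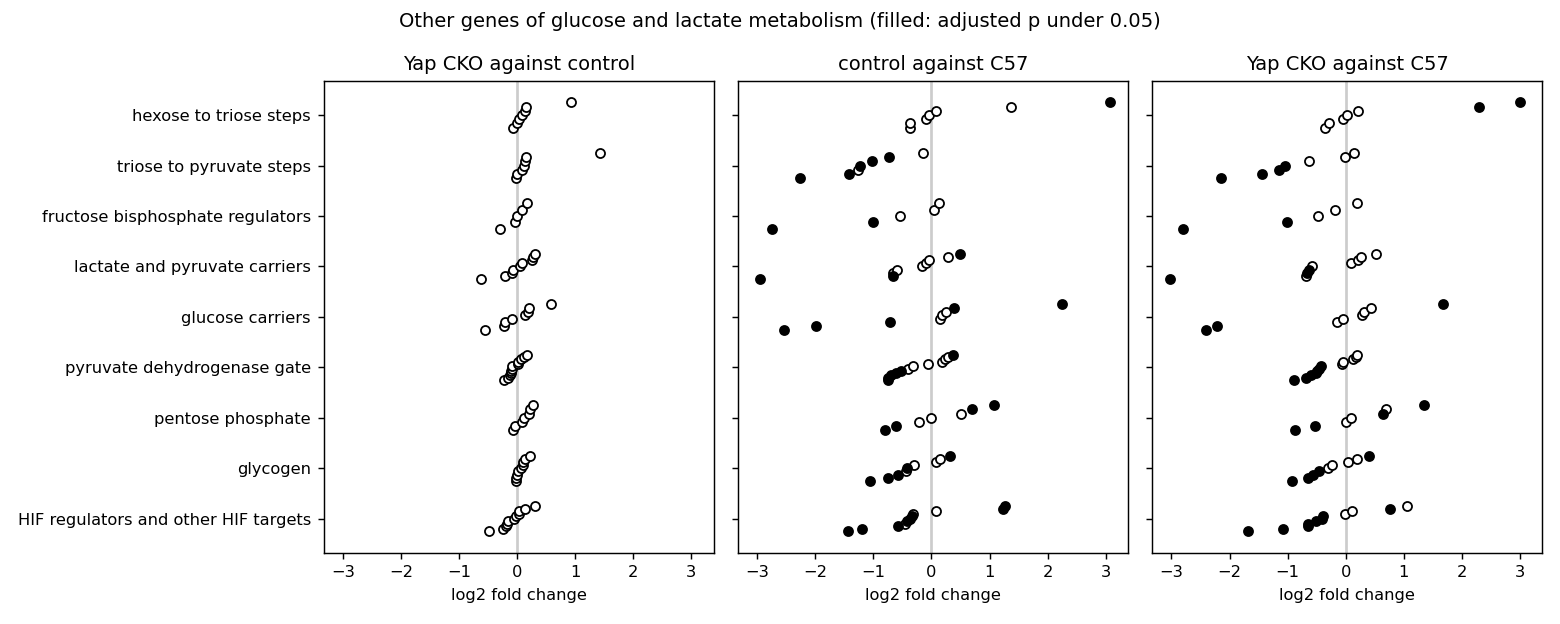
Log2 fold changes (x axis) of the 75 tested genes in 9 further lists of glucose and lactate metabolism for the 3 comparisons, filled where the adjusted p was under 0.05. No point is filled for Yap CKO against control; against C57 the steps from triose to pyruvate have filled points on the left only, and Hkdc1 stands near 3.

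The genes whose profile over the 9 libraries lay nearest to a member were found among 11392 genes by the root mean square difference of log2(CPM + 1), each gene centred on its own mean. Hk2 was nearest to Gramd2 (0.147) and Cplx4 (0.195), at larger distances than the nearest genes of any other member. Ldha was nearest to Zfp444 (0.0831) and Tmem106c (0.0874), Slc16a1 to Jam2 (0.0637) and Zfp974 (0.0964), and Ldhb to Pccb (0.0448) and Psmc3 (0.0516). Aldoc was nearest to Myl12b (0.0482), Pkm to Grina (0.0712), Aldoa to Ccs (0.057), Pfkl to Cul9 (0.0504), Hk1 to Amacr (0.109) and Slc2a1 to Card19 (0.0798). Nearness in 9 libraries that fall into such different groups says nothing of shared function or control.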

How the data were processed

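Per the submitters' processing notes, reads were handled with HISAT2 2.1.0, featureCounts and edgeR on GRCm38; the sources used here do not give the annotation release, the strand setting or the treatment of reads with several matches. The deposited table held raw read counts for 47729 identifiers, 47310 of them in GENCODE M21. The authors' deposited comparison table gave log2 fold changes and adjusted p-values for 305 genes; its 9 columns per library and 8 columns of group means were not used. The genotype entry of the controls reads Yap CKO, and the design text was followed. One C57 column has a number that no sample description shares, so only its group is known.

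Each comparison was fitted on its 6 libraries over all genes with edgeR 4.0.16 (R 4.3.3; filterByExpr with minimum count 10 and total 15, TMM scaling, robust quasi-likelihood F-test, Benjamini-Hochberg adjustment, threshold 0.05). Adjusted p-values are from that test unless another tool is named. CPM and RPKM were scaled by TMM over all 9 libraries. Tests were tried on simulated data. Alternatives were RLE scaling, no filter, 1 CPM in 3 libraries, DESeq2 1.42.0, limma-voom 3.58.1, 1 fit of all 9 libraries, bias-adjusted deviances, rod level as covariate, the replicate block and leaving out each library. Pairs of libraries within a group differed beyond sampling noise. The members, the further lists, the tests and the naming rule (all members, up to 4 genes of smallest p and the highest one per list, 2 nearest genes per member) were chosen with earlier results of these data known. Most genes the rule selects are described.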

Additional observations from a re-analysis of the deposited data

How the results depend on the processing

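Under settings other than leaving out a library, 230 fold changes of members kept their direction and side of the threshold, 5 came to pass it, 4 no longer passed and 11 turned. Hk1 in Yap CKO against control became 0.0023 with limma-voom and 0.089 with the rod covariate. Pfkl and Slc2a1 in control against C57 became 0.032 and 0.032 without a count filter and 0.078 and 0.029 with limma-voom. Pfkl in Yap CKO against C57 became -0.0021 with RLE scaling, -0.0021 with DESeq2 and -0.0041 with all 9 libraries in 1 fit. The cause was not tested.

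For Yap CKO against control, members called higher numbered 2 with DESeq2 and 1 with the rod covariate. Genes of the further lists called higher and lower numbered 1 and 1 without a filter, 2 and 4 with DESeq2 and 5 and 5 with the rod covariate. Calls over all genes numbered 343 of 27316 without a filter, 919 of 16539 with DESeq2 and 1637 of 16539 with the rod covariate.

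Leaving out 1 library at a time gave 0 to 1 members higher for Yap CKO against control, 4 to 8 lower for control against C57 and 2 to 6 lower for Yap CKO against C57. For the further lists the ranges were 0 to 5 higher and 0 to 5 lower, 4 to 13 higher and 20 to 35 lower, and 3 to 8 higher and 18 to 30 lower, for the comparisons in that order. Over all genes they were 0 to 656 higher and 0 to 817 lower for Yap CKO against control. For control against C57 they were 2546 to 4832 higher and 2493 to 4423 lower. For Yap CKO against C57 they were 2007 to 4234 higher and 1881 to 3779 lower. Fold changes that turned in Yap CKO against control were Hk1 (-0.21 to 0.23), Hk2 (-0.70 to 0.30), Pfkl (-0.031 to 0.094), Ldha (-0.057 to 0.19), Slc2a1 (-0.20 to 0.071) and the Hk2/Hk1 ratio (-0.68 to 0.22, positive without Yap CKO 3). In control against C57 they were Pfkl (-0.28 to 0.36) and Slc2a1 (-0.18 to 0.26), and in Yap CKO against C57 Pfkl (-0.27 to 0.37) and Slc2a1 (-0.25 to 0.19). Fewer samples enter each of these fits.

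Same-numbered Yap CKO and control libraries deviated together with correlations of 0.528, -0.0767 and 0.0103, so the numbers were not taken to pair them. With the replicate number as a block, members called were 0 for Yap CKO against control, 6 lower for control against C57 and 6 lower for Yap CKO against C57. Over all genes, these fits called 45 of 16539, 2708 of 15907 lower and 2648 of 15993 lower, in that order. The C57 blocks could use only libraries numbered 1 and 2. Under the block Hk1 in Yap CKO against control was 0.0025, Pfkl in Yap CKO against C57 was -0.23 and Ldhb in control against C57 was -0.44 (adjusted p = 0.0815). Over all genes, calls for Yap CKO against control numbered 0 without control 1 or control 2 and 1637 with the rod covariate, beside 33. In the C57 libraries, at less than the depth of P60, low genes such as Pgam2 and Hk3 are measured on few counts.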
